A study of Mus musculus with 16 samples.

Results

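The centromere-proximal ends of the mouse autosomes were described as the 100 kb windows between 3.0 and 8.0 Mb of chromosomes 1 to 19 in genome build mm10. They were chosen by position alone, 50 windows per chromosome, and made up 950 of 24029 windows (3.95%). Each end was compared with the other windows of its own chromosome matched for gene coverage, the share of a window lying under a protein-coding or lncRNA gene body. The libraries came from genomic DNA of E14TG2a, an established mouse embryonic stem cell line, electroporated with 1 mM Ado-6-azide, a synthetic analog of the methyl donor S-adenosylmethionine, and harvested 3 h later. A methyltransferase that accepts the analog leaves an azide on cytosine, to which a priming oligonucleotide is coupled, and reads are then started at the tagged sites. The Het group (3 libraries) and the day 0, 2, 4 and 8 groups (2 libraries each) all carried the heterozygous Dnmt1 N1580A knock-in, so each cell kept 1 wild-type allele. Day 0 cells were naive, grown with serum, LIF and the kinase inhibitors CHIR99021 and PD0325901, and the later days followed withdrawal of both inhibitors. The labels do not state the culture state of the Het group. The 5 remaining libraries (3 WT and 2 WT control) had wild-type Dnmt1 and served as background; the labels do not say how the 2 kinds differ. The labels do not describe the libraries of a group as separate cultures, and p-values therefore reflect only library-to-library spread, which may be technical. In DNA from a whole culture, fewer labelled cells and less label per cell cannot be told apart.

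Mouse autosomes carry the centromere at one tip. Its satellite arrays, packed as constitutive heterochromatin with dense CpG methylation, are largely missing from the assembly, so the sequence nearest the centromere in these files is the unique or segmentally duplicated DNA beside them. DNMT1 is the maintenance methyltransferase, which copies CpG methylation onto the new strand after replication. CpG-rich promoters are mostly unmethylated, whereas gene bodies and intergenic CpGs are mostly methylated in primed cells and less so in naive cells grown with both inhibitors.

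The files listed genomic positions with their read counts, and all 48261 listed positions that fell in the RefSeq promoter windows lay on the C of a CpG on the plus strand. Promoters of the ends show what such a listing looks like in sequence. The following 4 were printed because they span the range from many listed CpGs to none. Sequences are from RefSeq (GRCm38.p6), 300 bases each, 5′ to 3′ on the gene's strand, and capitals mark each CpG listed in at least 1 of the 11 knock-in libraries.

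Gm42064 promoter: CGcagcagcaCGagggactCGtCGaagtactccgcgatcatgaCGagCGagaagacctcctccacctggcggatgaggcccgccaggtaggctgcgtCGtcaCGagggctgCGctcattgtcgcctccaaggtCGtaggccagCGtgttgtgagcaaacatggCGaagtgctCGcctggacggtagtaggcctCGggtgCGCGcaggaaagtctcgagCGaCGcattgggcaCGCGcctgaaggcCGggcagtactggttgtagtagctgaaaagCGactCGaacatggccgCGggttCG

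Peg3 promoter: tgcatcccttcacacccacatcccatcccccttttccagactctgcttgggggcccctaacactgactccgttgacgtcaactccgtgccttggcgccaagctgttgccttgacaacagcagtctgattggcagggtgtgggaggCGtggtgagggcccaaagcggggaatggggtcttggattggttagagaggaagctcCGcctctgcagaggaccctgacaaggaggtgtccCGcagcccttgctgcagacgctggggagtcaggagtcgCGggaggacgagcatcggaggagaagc

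Ubxn2a promoter: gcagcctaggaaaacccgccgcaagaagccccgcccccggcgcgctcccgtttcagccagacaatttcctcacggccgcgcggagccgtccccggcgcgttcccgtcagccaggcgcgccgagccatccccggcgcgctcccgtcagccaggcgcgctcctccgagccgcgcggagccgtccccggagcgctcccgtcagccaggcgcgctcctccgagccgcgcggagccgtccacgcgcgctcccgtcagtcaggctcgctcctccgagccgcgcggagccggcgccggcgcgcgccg

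Gm2977 promoter: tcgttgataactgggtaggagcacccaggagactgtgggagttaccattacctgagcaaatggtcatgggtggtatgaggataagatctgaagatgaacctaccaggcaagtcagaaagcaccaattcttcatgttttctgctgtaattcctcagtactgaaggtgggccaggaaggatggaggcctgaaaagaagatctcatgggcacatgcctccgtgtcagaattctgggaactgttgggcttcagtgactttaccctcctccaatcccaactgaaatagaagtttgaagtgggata

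The Gm42064 window (chr19:5307054-5307353, minus strand) had 25 of 34 CpGs listed, with 153 reads. This was the most among promoters of the ends that share under 50% of their 50-base words with another promoter. Peg3 encodes an imprinted zinc finger protein, and its window (chr7:6730370-6730669, minus strand) had 4 of 13 CpGs listed, with 33 reads over the 11 libraries. The Ubxn2a window (chr12:4907504-4907803, minus strand) had 0 of 56 CpGs listed. These were the most CpGs among promoters of the ends that had no listing and shared no such word with another promoter. The Gm2977 window (chr14:3503766-3504065, plus strand) was identical over all 300 bases to that of Gm3050 (chr14:3743159-3743458, plus strand), and neither of its 2 CpGs was listed at either place. No wild-type library listed a CpG marked in capitals in the Gm42064 or Peg3 window. Wild-type listings at other positions of the printed windows were not counted.

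Knock-in libraries listed 390158 to 3423423 positions and held 4202118 to 25175264 reads, against 960 to 9150 positions and 1640 to 22890 reads in the wild-type libraries. The day 0 libraries stood apart, with the fewest positions of the knock-in libraries (390158 and 407127) against 1267200 to 3423423 in the other 9. A position is listed once however many reads it has, so counts of positions saturate with depth, and reads carry no molecular identifiers. Both quantities are therefore given for the ratio of the ends and for the counts of windows called between days. The profiles by distance, gene coverage and chromosome are mainly by positions. Intervals cover counting error only. No knock-in library listed a position at or below 3.0 Mb of an autosome.

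Every knock-in library listed fewer positions in the ends than in matched windows. The ratio was 0.852, 0.837 and 0.839 in Het, 0.877 and 0.877 on day 0, 0.836 and 0.834 on day 2, 0.836 and 0.834 on day 4, and 0.831 and 0.829 on day 8. Its mean was 0.844 ± 0.0175 (SD, n = 11), and 0.836 ± 0.00666 (SD, n = 9) without the day 0 libraries. Both day 0 libraries, which are also the shallowest, lay above the other 9, and the part of depth in this was not tested. Among the other 9, the day 2 and day 4 values overlapped, both day 8 libraries lay just below them and the 3 Het libraries just above them. These steps between groups are small, and no test of them was made.

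In absolute terms, Het library 2, the deepest, listed a mean of 117 positions per window in the ends against 139 in matched windows. Day 0 library 1, the shallowest, listed 13.9 against 15.9, and day 8 library 1 listed 104 against 125. The ends held 3.46% of the listed autosomal positions of day 0 library 1 (95% exact binomial interval 3.40 to 3.52) and 3.27% in day 8 library 1 (3.25 to 3.29).

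By reads the ends were also lower than matched windows in every knock-in library, with the day 0 libraries highest. The ratio of reads was 0.834, 0.829 and 0.826 in Het, 0.852 and 0.852 on day 0, 0.822 and 0.826 on day 2, 0.832 and 0.831 on day 4, and 0.826 and 0.823 on day 8, with a mean of 0.832 ± 0.0106 (SD, n = 11). Reads per listed position in the ends were 0.971 to 0.996 times those of matched windows, so the difference lay mainly in the number of positions. In the wild-type libraries the ends held only 38 to 308 positions, and the ratio ranged from 0.652 to 0.997, a spread that includes the knock-in values.

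**Figure D1:**
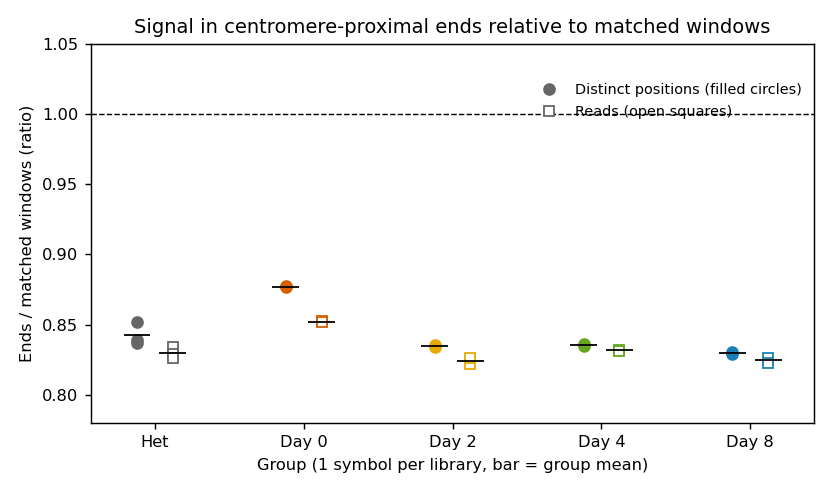
Ratio of the summed signal in the centromere-proximal ends to that of matched windows, for distinct positions (filled circles) and reads (open squares), with 1 symbol per knock-in library, a bar at each group mean, and a dashed line at equal signal. The axis starts above 0, all symbols lie between 0.822 and 0.877, and the day 0 libraries lie highest for both quantities.

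Single windows of the ends varied widely. The median window of the ends lay at -0.29 on the log2 scale against its matched mean, over the 11 libraries, compared with -0.16 for the windows outside the ends and 0.09 for the last 5 Mb of each chromosome. Of the 950 windows, 627 (66%) lay below their matched mean, compared with 57.0% of the others. Windows below 0.5 times the matched mean made up 18.5% of the ends and 17.1% of the others, but windows above 2 times the matched mean made up 1.37% (13 windows) against 4.4%. In limma's test of each window against its matched mean, with Benjamini-Hochberg adjustment at 0.05, 555 windows of the ends were below and 246 above, against backgrounds of 50.9% below and 36.3% above over all windows. The test calls 87.2% of all windows, so a call by itself says little. With the same matching to interior windows, the ends were at 0.834 to 0.883 per library and the distal 5 Mb at 1.14 to 1.17, so the 2 tips of the chromosomes did not overlap in any library.

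The ratio did not rise steadily with distance from the centromere. It was 0.842 ± 0.0560 from 3 to 4 Mb, 0.890 ± 0.00813 from 4 to 5 Mb, 0.905 ± 0.0151 from 5 to 6 Mb, 0.832 ± 0.0160 from 6 to 7 Mb and 0.740 ± 0.0295 from 7 to 8 Mb (SD, n = 11 libraries). Windows beyond the ends were also low: 0.879 from 8 to 14 Mb, 0.726 from 14 to 20 Mb and 0.878 from 20 to 30 Mb, before 0.982 from 30 to 40 Mb. Just inside the outer limit, windows at 7.9 to 8.0 Mb had 0.838, and just outside, at 8.0 to 8.1 Mb, 0.842. Over whole 1 Mb bins, however, the 11 libraries ranged from 0.714 to 0.804 from 7 to 8 Mb. From 8 to 9 Mb they ranged from 0.899 to 0.991, without overlap. The windows touching the 8.0 Mb limit thus show no edge, while the 1 Mb bins before and after it differ.

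**Figure D2:**
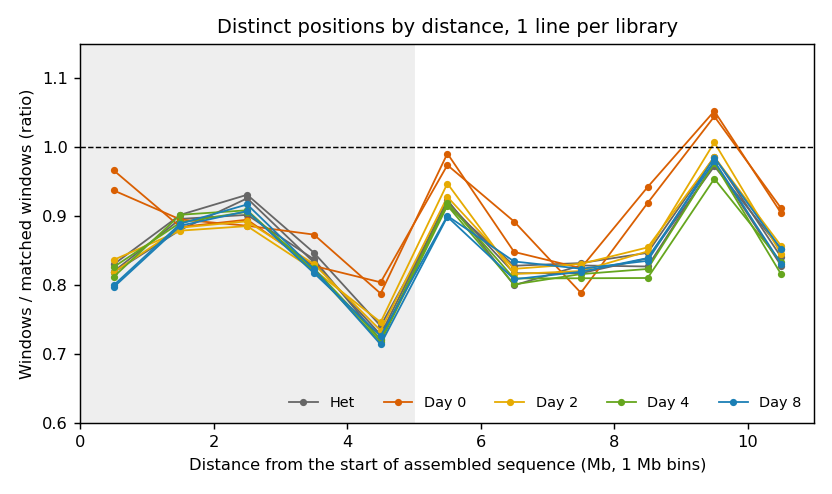
Ratio of distinct positions to matched windows in 1 Mb bins by distance from the start of assembled sequence, with 1 line per knock-in library coloured by group. The shaded first 5 Mb are the ends. The lines of all groups dip in the last bin of the ends (group means 0.719 to 0.796), and in the first bin both day 0 libraries (0.937 and 0.967) lie above the other 9 (0.797 to 0.837).

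The first 200 kb behaved differently between groups. Windows at 3.0 to 3.1 Mb had a ratio of 1.20 on day 0, 0.680 on day 2, 0.561 on day 4, 0.556 on day 8 and 0.612 in Het (group means). Windows at 3.1 to 3.2 Mb had 1.38 on day 0 and 0.737 on day 8. Chromosomes also differed in the first window, where summed positions over the 11 libraries ranged from 0 on chromosomes 10 and 11, whose first listed positions lie just beyond 3.1 Mb, to 1355 on chromosome 9, which is 2.35 times its matched value. Each of these 2 bins sums only 19 windows. The chromosome 9 window and the chromosome 11 window at 3.1 to 3.2 Mb hold 32 and 47 positions listed in all 11 libraries. The bins were not summed without these windows, and the part of depth was not tested. Without 3.0 to 3.2 Mb the mean ratio of the ends was 0.844, and that of the day 0 group fell from 0.877 to 0.863. By reads the day 0 mean fell from 0.852 to 0.839.

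Ratios differed with gene coverage among the windows of the ends. The 237 windows without a gene (24.9%, against 22.4% elsewhere) had a ratio of 1.04 ± 0.100 (SD, n = 11 libraries), 1.24 on day 0 and 0.974 on day 8. Windows with some gene had 0.813 ± 0.00669. Between the strata the ratio was 0.718 for coverage up to 0.2, 0.756 up to 0.4, 0.801 up to 0.6, 0.859 up to 0.8, 0.808 below full and 0.901 for fully covered windows. Mean gene coverage was 44.3% in the ends and 48.2% in the other windows. All these strata include the nearly empty end of chromosome 14, with a ratio of 0.118 and a mean gene coverage of 55.5%. They were not determined without that end, so its part in the lower ratio of gene-bearing windows was not tested.

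Chromosomes differed more than libraries did. The ends of 16 of 19 chromosomes had a mean ratio below 1, and those of chromosomes 19 (1.22 ± 0.0935), 11 (1.12 ± 0.0746) and 2 (1.08 ± 0.0188) lay above 1 in all 11 libraries. Chromosome 14 was lowest, at 0.118 ± 0.00888, followed by chromosome 9 at 0.627 ± 0.0724. The highest of the 11 chromosome 14 values (0.139) lay below the lowest value of any other chromosome (0.560). Without chromosome 14 the mean ratio of the ends was 0.887, and 0.924 on day 0 against 0.871 on day 8.

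**Figure D3:**
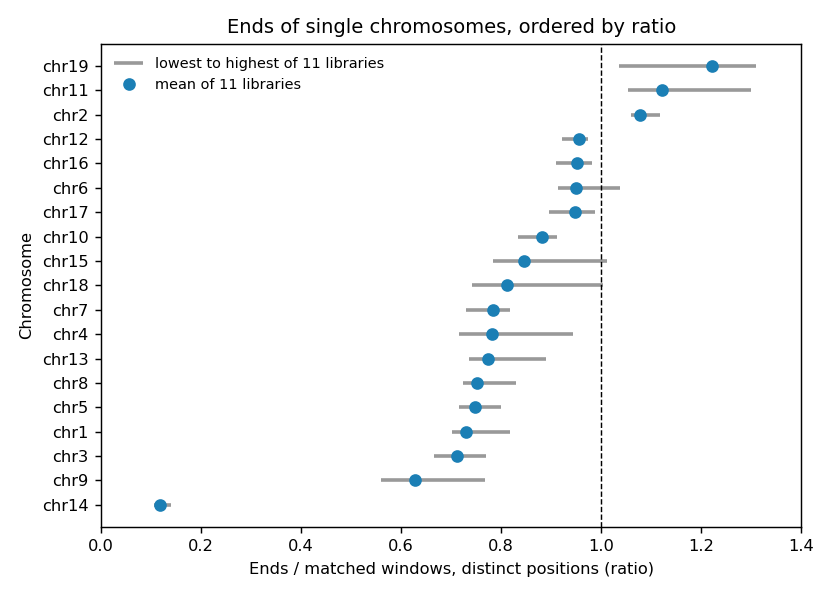
Ratio of distinct positions in the ends of each chromosome to matched windows of that chromosome, with the mean of the 11 knock-in libraries as a point and their range as a bar. Chromosome 14 lies apart at 0.118, and chromosomes 2, 11 and 19 lie right of the dashed line at equal signal.

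The end of chromosome 14 was nearly empty up to about 7.7 Mb. Its windows summed to 5457 positions over the 11 libraries, of which 754, 1419 and 1880 lay in the last 3 windows, from 7.7 to 8.0 Mb. Of the 61 windows of the ends at under an eighth of their matched mean (6.42%, against 1.36% of the other windows), 44 were on chromosome 14, and 6 of its windows held no position in any of the 11 libraries. The 4 lowest windows of the ends, each empty in all 11 libraries, were all there. They covered Gm3194 and Gm3187 (chr14:5400001-5500000), Gm2977 and Gm3005 (chr14:3500001-3600000), Gm3317 and Gm8271 (chr14:5100001-5200000), and Gm3373 and Gm3383 (chr14:5700001-5800000). Of the 80 protein-coding genes of this end, 71 have predicted-gene (Gm) symbols and 32 had no listed position.

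Sequence copies were most frequent on the same end. Of its 156 RefSeq promoters, 98 (62.8%) shared at least 50% of their 50-base words with another promoter, compared with 2.25% for the ends of the other chromosomes and 2.36% for promoters outside the ends. How the authors treated reads that map to several places is not given in the sources used here, and the part of such copies in the low counts was not tested. A shorter stretch of low counts lay on chromosome 7, where 9 windows were at under an eighth of their matched mean, 7 of them adjacent from 7.3 to 8.0 Mb over the vomeronasal receptor genes Vmn2r30 to Vmn2r36. By the same measure of shared words, 7.64% of the promoters of the chromosome 7 end were copies, against 6.21% on the rest of that chromosome. Of the 23 vomeronasal genes of the ends, which encode pheromone receptors, 8 had no position. Over all chromosomes, 107 of 354 vomeronasal genes had none. Of the 378 protein-coding genes of at least 20 kb in the ends, 12 had no listed position, 10 of them on chromosome 14 and 2, Vmn1r63 and Vmn2r36, on chromosome 7. The 6 others named by the rule for the fewest positions per kb were Gm2977, Gm3005, Gm3095, Gm3264, Gm3317 and Gm3500, all at 0 and all on chromosome 14.

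At the other extreme, 7 of the 8 genes with the most positions per kb lay on chromosomes 19 and 11 and the eighth on chromosome 17. Summed over the 11 libraries, Pcnx3, a pecanex family membrane protein, had 34.4 positions per kb, Pola2 29.7, the autophagy gene Atg2a 28.7, Frmd8 27.9, Sfi1 26.4, the phospholipase Plcb3 26.2, the peptidase Dpp3 25.3 and Ezr 24.9. The median over the 378 genes of at least 20 kb was 9.44.

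The share of promoter CpGs listed is given by the number of CpGs in the promoter, with no test of the difference between the ends and the rest. Of 16170 CpGs in 1269 promoters, 9.45% were listed in at least 1 knock-in library, 10.1% without chromosome 14, compared with 12.3% in promoters outside the ends. Chromosome 18 was not used for this count. In promoters with at most 4 CpGs the shares were 53.8% in the ends, 61.7% in the ends without chromosome 14, and 61.7% outside. With 5 to 9 CpGs they were 45.1%, 51.4% and 53.2%, and with 10 to 19 CpGs 9.38%, 9.83% and 13.0%. Promoters with at least 20 CpGs had few listed CpGs throughout, 1.28%, 1.37% and 1.36%. Without chromosome 14 the ends were thus lower in the classes of 5 to 9 and 10 to 19 CpGs and level with the rest in the other two. The Ubxn2a and Gm42064 windows printed above, with 56 and 34 CpGs, show how far single promoters of this class departed from each other.

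A few positions of the ends recurred in every library. Of 386562 distinct positions listed in the ends by any knock-in library, 50.2% were in 1 library only, and 83 were in all 11, against 6.53 in the matched windows. Of these 83, 47 lay in Sfi1 and 32 in the first window of chromosome 9, and the rest in 3 further windows. Outside the ends, 188 positions were in all 11 libraries.

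The 4 windows highest above their matched mean held no annotated gene. They were chr9:3000001-3100000, chr13:3300001-3400000, chr11:6800001-6900000 and chr17:4800001-4900000. The chromosome 9 window had 84 and 81 positions on day 0, 100 and 88 on day 2, 107 and 115 on day 4, 149 and 155 on day 8, and 135, 168 and 173 in Het. The chromosome 17 window had 20 and 20 positions on day 0 and 175 and 135 on day 8, which per 1000000 listed positions is 51.3 and 49.1 against 57.1 and 51.9.

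The comparison of day 8 with day 0 asked where the distribution of tagged CpGs shifted as cells left the naive state. By distinct positions, edgeR's quasi-likelihood test with Benjamini-Hochberg adjustment at 0.05 called 134 of 894 tested windows of the ends, 31 higher (3.47%) and 103 lower (11.5%) on day 8. Over all windows tested the backgrounds were 10.7% in either direction, 3.94% higher and 6.76% lower. The share of falls in the ends was thus above its background and the share of rises slightly below it. Called falls ranged from -0.55 to -2.01 on the log2 scale with a median of -0.99. In 100 of the 103 both day 8 libraries lay below both day 0 libraries. The count is of windows already called, so such a separation is likely, and its share over all windows was not determined. The median over all tested windows of the ends was -0.05, against 0.01 over all windows.

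By reads, 86 of 909 windows were called, 32 higher and 54 lower, against backgrounds of 7.97%, 3.76% and 4.21%. Every one of the 103 windows that fell by positions had a negative change by reads, and 46 were called by both. All 31 that rose by positions had a positive change by reads, and 16 were called by both. These windows were chosen by their change in positions in the same libraries, so a shared direction is likely. The same shares over all windows were not determined. Scaling to library totals in place of TMM gave 39 higher and 89 lower by positions, and 43 higher and 42 lower by reads, so the split of the read calls depends on the scaling. The calls rest on few libraries. Without day 0 library 1 or 2, 72 and 38 windows were called by positions. By reads, 0 were called without either day 8 library, 10 without either day 4 library, 42 without either day 2 library, and 305 and 307 without day 0 library 1 and 2.

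**Figure D4:**
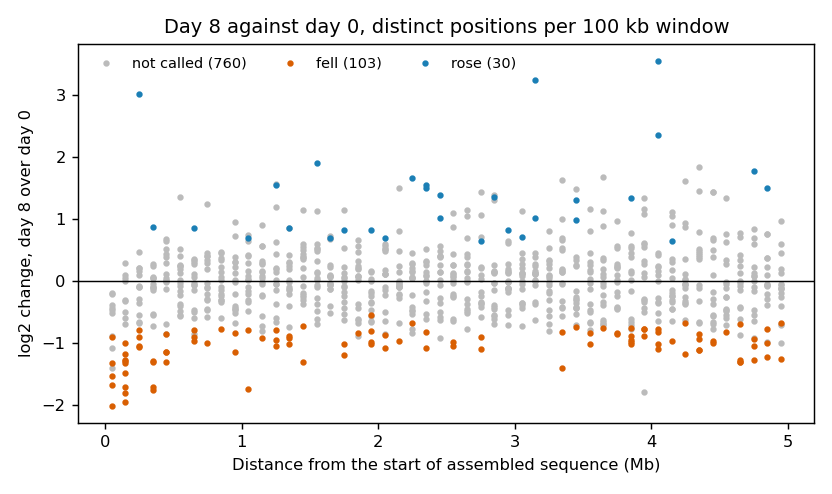
Fitted log2 change of distinct positions on day 8 over day 0 for each tested window of the ends, by distance from the start of assembled sequence, with falls and rises called by edgeR coloured. The 103 falls are densest in the first 200 kb, and 1 window (chr7:3700001-3800000, over Pira1 and Pirb) is left out because neither day 0 library listed a position there.

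Falls were most frequent next to the assembled start. In the first 200 kb, 14 of 32 tested windows fell (43.8%), on 11 chromosomes, by 0.90 to 2.01 on the log2 scale, and 10 of the 14 were also called by reads. Without these 2 windows per chromosome, 89 of 862 windows fell (10.3%). The share was 18.9% from 3 to 4 Mb, 10% from 4 to 5 Mb, 5.56% from 5 to 6 Mb, 8.84% from 6 to 7 Mb and 14.6% from 7 to 8 Mb. Beyond the ends it was 13.3% from 8 to 9 Mb and 10.5% from 8 to 14 Mb, which overlaps the range within the ends.

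Falls were also more frequent where genes were sparse. Of the 103 windows, 45 held no gene, and among tested windows without a gene 19.3% fell in the ends (45 of 233) and 5.59% elsewhere. At a gene coverage under 0.4, 18.1% of the end windows and 7.34% of the other windows fell. At 0.4 or more the shares were 5.09% and 5.96%. Some falls were adjacent, with 47 of the 103 next to another fall, and no such share was determined for falls outside the ends. The longest run was 5 windows without genes on chromosome 11 (7500001 to 8000000). A run of 4 on chromosome 4 (3100001 to 3500000) covered Vmn1r2, Gm52720 and Gm46840, and a run of 3 on chromosome 15 (6700001 to 7000000) covered Rictor, Osmr and Gm30559.

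The windows named here are the 4 with the largest falls and the 4 with the largest rises among called windows at or above the median abundance whose day 8 and day 0 libraries did not overlap. The first 2 falls also stood out in the recurrence of positions. The first window of chromosome 9 went from 215 and 199 positions per 1000000 listed positions on day 0 to 48.6 and 59.5 on day 8, a log2 change of -2.01 ± 0.15 (SE). Its edgeR quasi-likelihood p with Benjamini-Hochberg adjustment was 1.71e-35. The window held 32 of the positions listed in all 11 libraries, and the part of depth in its fall by positions was not tested. The window of Sfi1 and Gm33862 (chr11:3100001-3200000) went from 308 and 307 to 89.4 and 93.7 per 1000000 (-1.81 ± 0.14). The Gm41664 window (chr18:6300001-6400000) went from 84.6 and 101 to 34.3 and 39.6 per 1000000 (-1.40 ± 0.21), and the 2810429I04Rik window (chr13:3400001-3500000) from 108 and 101 to 49.9 and 37.3 (-1.30 ± 0.19). All 4 were also called by reads, with log2 changes of -0.68, -0.69, -1.33 and -1.53. For the first 2 loci the fall was thus smaller in reads than in positions.

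The 4 largest rises of this choice were in gene-bearing windows. Outside it called rises reached 3.54 on the log2 scale. The window inside Slc25a13, which encodes the mitochondrial aspartate-glutamate carrier citrin, went from 23.1 and 36.8 to 64.6 and 62.6 positions per 1000000 (chr6:6100001-6200000, log2 1.02 ± 0.27). The window of Smim17 and the olfactory receptor gene Olfr5 went from 12.8 and 27.0 to 43.1 and 39.6 (chr7:6400001-6500000, 0.98 ± 0.32). The window of Limk2, a kinase of the actin regulator cofilin, and Pik3ip1 went from 33.3 and 44.2 to 74.4 and 74.9 (chr11:3300001-3400000, 0.88 ± 0.24). The window of Fcer2a, the low-affinity IgE receptor, and Stxbp2 went from 41.0 and 39.3 to 77.6 and 74.1 (chr8:3600001-3700000, 0.86 ± 0.24). The Limk2 window was not called by reads (edgeR adjusted p = 0.0704).

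Few windows differed between day 8 and day 2 beyond the spread of libraries. Here edgeR called 2 of 894 windows by positions, both lower, against backgrounds of 0.14% in either direction, 0.101% higher and 0.0381% lower. They were the Sfi1 window, with 155 and 143 positions per 1000000 on day 2 (log2 -0.71, edgeR adjusted p = 2.48e-06), and the Gm41264 window (chr15:7500001-7600000), with 46.6 and 49.7 on day 2 and 29.0 and 30.4 on day 8 (-0.70, adjusted p = 0.0399). By reads, edgeR called 0 of 909 windows of the ends against a background of 0.0042%, with 19 at an unadjusted p under 0.05, and DESeq2 also called 0.

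Sfi1 encodes a centrin-binding protein of the centrosome and spindle, and its gene body (chr11:3131850-3203347) reaches from the second window of the chromosome just past 3.2 Mb. It had 101 and 97 positions on day 0, 159 and 155 on day 2, 194 and 201 on day 4, 199 and 187 on day 8, and 168, 230 and 196 in Het. The raw count therefore rose while libraries grew faster, and the libraries together listed 373 positions there. Day 0 libraries, with far fewer positions than day 8 libraries, already listed 27.1% and 26.0% of them, against 53.4% and 50.1% on day 8. In positions per 1000000 listed positions it went from 259 and 238 on day 0 to 125 and 119, 92.7 and 78.0, and 64.9 and 71.8 on the later days, a log2 change on day 8 of -1.93 ± 0.14 (edgeR adjusted p = 9.42e-40). Of its positions, 47 were listed in all 11 libraries, and such a position adds no further count as libraries deepen. The part of depth in the fall by positions was not tested. In reads per 1000000 Sfi1 went from 418 and 432 on day 0 to 302 and 308 on day 2 and 282 and 292 on day 8, a log2 change of -0.64 (edgeR adjusted p = 0.0197). Each position carried 17.4 and 21.7 reads on day 0 and 17.9 and 16.4 on day 8, whereas the ends as a whole went from 10.5 and 11.6 to 4.09 and 4.02. Of the wild-type libraries, WT library 3 and WT control library 1 listed 2 positions each in Sfi1 and the other 3 listed none.

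**Figure D5:**
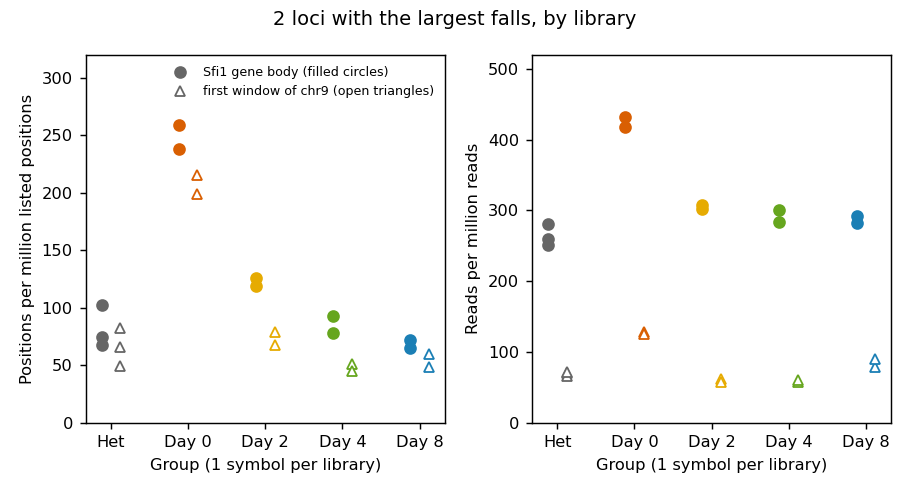
Positions per 1000000 listed positions (left) and reads per 1000000 reads (right) in the Sfi1 gene body (filled circles) and the first window of chromosome 9 (open triangles), with 1 symbol per knock-in library. At both loci the day 0 libraries lie highest in both panels. In reads, Sfi1 levels on day 2 (302 and 308) already lie close to day 8 (282 and 292).

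The first window of chromosome 9 has no annotated gene. Its reads per 1000000 were 129 and 126 on day 0, 61.7 and 57.9 on day 2, 57.2 and 59.8 on day 4, and 79.5 and 89.8 on day 8. Its low point by reads was on days 2 and 4. The first 2 windows of chromosome 12, which both fell and hold no gene, had 129 and 116 reads per 1000000 on day 0, and 50.4 and 51.1 on day 8.

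Gene bodies were tested in the same way. Of 1303 genes with at least 50% of their length in the ends, 732 passed the filter on low counts, and edgeR called 35 by positions, 14 higher and 21 lower on day 8. The backgrounds were 5.05% in either direction, 2.25% higher and 2.8% lower, so the shares of 1.91% higher and 2.87% lower lie near those over all genes. Scaling to library totals gave 17 higher and 16 lower. Without day 0 library 1 or 2, 11 and 7 were called, and 23 without day 8 library 1. By reads, 30 of 1115 were called, 22 higher and 8 lower, against backgrounds of 2.62%, 1.87% and 0.752%, so the 2 quantities differ in their balance.

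The genes that rose, 14 in all, were 12 protein-coding genes and 2 lncRNAs. Ezr, the membrane-actin linker ezrin, had 8 and 6 positions on day 0 and 151 and 138 on day 8 (log2 1.47 ± 0.33). Pola2, the B subunit of DNA polymerase alpha, had 2 and 7 on day 0 and 99 and 88 on day 8 (1.48 ± 0.41). Pkia, an inhibitor of protein kinase A, went from 3 and 2 to 67 and 53 (1.68 ± 0.52), and the cAMP-responsive transcription factor Crem from 1 and 3 to 59 and 46 (1.81 ± 0.57). Urgcp, linked to cell proliferation, went from 2 and 2 to 86 and 67 (2.35 ± 0.53). The genes named here were chosen among called genes whose day 8 and day 0 libraries did not overlap per 1000000 positions. Of these 5, Ezr and Pola2 were also called by reads. Pkia, Crem and Urgcp were not (edgeR adjusted p = 0.0595, 0.0689 and 0.555). Their day 0 counts are small, so the size of these changes is poorly determined. Neat1, the scaffold lncRNA of paraspeckles, had 0 positions on day 0 and 115 on day 8, which is at least 5.39-fold higher against a floor of 3 positions over both day 0 libraries, as shares of all positions.

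Of the 21 genes that fell, 11, Sfi1 among them, were protein-coding and 10 were lncRNAs. The lncRNA Gm16685 had 22 and 25 positions on day 0 and 71 and 53 on day 8 (log2 -1.49 ± 0.26), and Gm26901 had 27 and 29 and then 91 and 89 (-1.21 ± 0.23). Gm13391 changed by -1.39 ± 0.33 and Gm46840 by -1.17 ± 0.31. Hmox2, the constitutive heme oxygenase, had 13 and 9 positions on day 0 and 42 and 31 on day 8 (-1.16 ± 0.37). Of these only Gm16685 and Sfi1 were also called by reads. Among other genes that fell, named after their values were seen, were the imprinted gene Peg3 (-1.05 ± 0.29), the mTORC2 subunit gene Rictor (-0.84 ± 0.21), the kinetochore gene Cenpo (-0.97 ± 0.24) and Rgs20, a regulator of G protein signalling (-0.95 ± 0.19). By reads the change of Peg3 was -1.02 and missed the threshold (edgeR adjusted p = 0.067), while Rictor, Cenpo and Rgs20 were called.

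Few members of the gene families were called on day 8. Of 35 genes longer than 200 kb, 2 rose and none fell by edgeR, with 6 higher and 4 lower at an unadjusted p under 0.05. Over all chromosomes, 108 of 1002 tested genes of this length rose and 136 fell. The difference between the ends and the rest in this class was not tested. Of 25 zinc finger genes, 16 were tested by positions and 0 were called, with 2 at an unadjusted p under 0.05, and by reads 0 of 25 were called, with 7. Over all chromosomes, 7 of 304 tested zinc finger genes rose and 14 fell by positions. Only 1 of 23 vomeronasal and 0 of 10 olfactory receptor genes had enough positions to be tested. Vomeronasal genes of the ends had 0.820 positions per kb, pooled over genes and summed over libraries, against 2.53 for all vomeronasal genes and 10.8 for all genes. Olfactory receptor genes of the ends had 14.2 against 7.18 for all olfactory receptor genes.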

How the data were processed

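The assay marks CpGs tagged with Ado-6-azide in 16 libraries. The submitters' processing notes name cutadapt (4.4), BWA (0.7.17-r1188) and SAMtools (1.12), and build mm10. The authors deposited 1 table per library of chromosome, position and coverage, the last being a raw read count in whole numbers, per the file headers and values. Unlisted positions were taken as 0. Groups came from the sample titles.

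Positions and reads were summed per 100 kb window and per RefSeq gene body (GRCm38.p6). The matched value is the mean of the other windows of the same chromosome in the same of 7 strata of gene coverage. Windows and genes were fitted over the 8 day libraries with edgeR 4.0.16 (filterByExpr, TMM, quasi-likelihood test, Benjamini-Hochberg at 0.05). Levels were tested with limma 3.58.1 on log2 ratios with a pseudocount of 1, and DESeq2 1.42.0 was an alternative. The tests were checked on simulated data. Windows and genes were named by size of change or level among those called, at or above median abundance and without overlap of days 8 and 0. The ends, lists and tests were chosen with earlier results of these data known. Overlapping genes share reads, and strand was not used. Within each day, the difference between its libraries was taken per window, in the order of their replicate numbers. These differences, not the libraries themselves, correlated between days at -0.0226 to 0.0106. The replicate numbers therefore gave no sign of pairing libraries across days. Counting error in single windows can hide such a sign, so pairing is not excluded.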

Additional observations from a re-analysis of the deposited data

How the results depend on the processing

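The ratio of positions moved by more than the spread within groups in several settings, and stayed below 1 in every one. It was 0.827 with no matching, 0.858 with the 20 nearest windows in gene coverage, 0.836 with protein-coding coverage only, 0.850 with empty windows left out and 0.849 with the last 5 Mb left out. For reads these were 0.814, 0.849, 0.824, 0.838 and 0.838, with 0.826 after leaving out the 1% of windows with most reads per position. Chosen after seeing the data, leaving out chromosome 14 gave 0.887 for positions and 0.875 for reads, leaving out chromosome 14 and 3.0 to 3.2 Mb gave 0.887 and 0.872, and leaving out both day 0 libraries gave 0.836 and 0.828. Leaving out single libraries gave 0.840 to 0.845 for positions and 0.830 to 0.833 for reads.

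For day 8 against day 0, DESeq2 called 61 windows by positions (2 higher, 59 lower) and 211 by reads, and fitting only the 4 libraries of both days called 125 and 0. Leaving out single libraries called 38 to 133 windows by positions, 0 to 307 by reads and 7 to 32 gene bodies. For day 8 against day 2 by positions, DESeq2 called 1 window and leaving out single libraries called 0 to 2. With the replicate number as a block, 130 windows were called by positions, 65 by reads and 2 against day 2, and 35 gene bodies; the samples share only a number. The cause of these differences was not tested. Windows that rose had a median of 11 positions over both day 0 libraries and windows that fell had 43, so the rises rest on few day 0 counts.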
